A study of Mus musculus with 5 samples.

Results

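The silencing mark H3K9me3 was profiled in mouse CD8+ T cells, and 8 genes with unusually heavy read coverage were examined. A region of these genes held up to 81833 reads over the 4 libraries. The genes were Sfi1, 2700054A10Rik, Chl1, Cdk8, Gm33838, Gm36876, Gm525 and Atrnl1. They were chosen by their read counts, and with earlier results of the same comparison known, so their coverage and the directions below are descriptions. All regions within 5 kb of a gene's span were taken, which gave 55 of the 46409 regions in the table and 8 of the 8915 protein-coding and lncRNA genes with a region that close. No repeat annotation and no genome sequence were used here, so whether these stretches are repeats with fewer copies in the assembly than in the genome was not tested. The genes are therefore called the heavily covered genes.

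The cells were splenic CD8+ T cells of mice with an OT-I receptor transgene and a Cas9 transgene, a background that both groups share. In the sgPrdm12 group (genotype label Prdm12-ko) they were electroporated with a ribonucleoprotein of 300 pmol Cas9 and 300 pmol of guide against Prdm12, a gene best known from pain-sensing neurons. The sgNTC group (genotype label Prdm12-wt) received the same amounts with a non-targeting guide, and the cells of both groups recovered for 72 hours. Each group had 2 CUT&Tag libraries, with replicate 1 in batch 1 and replicate 2 in batch 2, per the labels. CUT&Tag uses an antibody to bring a transposase to chromatin that carries the mark, so that the DNA there is cut and tagged. The IgG library was not analysed here. Separate animals are not stated, so p-values reflect only how far these libraries vary, possibly for technical reasons. With bulk cells a change in every cell and a change in the share of cells cannot be told apart. No region lay near any of the 5 annotated T cell marker genes, so the mark gives no check of cell identity.

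Totals over all regions were 2353807 and 1396201 reads in sgPrdm12-1 and sgPrdm12-2, against 843673 and 1060646 in sgNTC-1 and sgNTC-2. The median region held 32 and 17 reads in the sgPrdm12 libraries and 7 and 9 in the sgNTC libraries. The regions of the 8 genes together took 5.23% and 6.42% of the sgPrdm12 reads and 5.90% and 5.53% of the sgNTC reads, so the groups overlapped in this total.

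H3K9me3 is laid down by the SUV39H and SETDB1 families of methyltransferases and bound by heterochromatin protein 1. In mouse cells it is best known from the satellite repeats around centromeres, from silenced transposable elements and from gene clusters that stay shut. Reads from repeated sequence are hard to place, because copies that an assembly lacks are aligned to the copies it holds. Among the 8 genes, Sfi1 encodes a centrin-binding protein of the centrosome, known from yeast and human cells. Chl1 encodes an adhesion protein of the L1 family in neurons, Cdk8 the kinase of the Mediator complex, and Atrnl1 an attractin-like membrane protein. Gm525 is annotated as protein-coding, and 2700054A10Rik, Gm33838 and Gm36876 as lncRNA genes.

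The heaviest regions lay inside the genes and away from their start sites in most cases where a start could be placed. RefSeq promoter windows of GRCm38.p6, each with 250 bases before and 50 after the start, were matched for 6 of the 8 genes, and none of these windows overlapped a region of the 8 genes. The main region lay 0.945 kb from the start in 2700054A10Rik, 7.85 kb in Gm525, 29.7 kb in Cdk8, 30.9 kb in Gm36876, 138 kb in Chl1 and 502 kb in Atrnl1. Chl1 also had a second region 0.719 kb from its start, which held only 21 and 4 reads in sgPrdm12 and 4 and 4 in sgNTC. The windows of the 2 genes with a region within 1 kb of the start are printed here, 5′ to 3′ on the gene's strand, as the sequence nearest to the covered stretch that was at hand. 2700054A10Rik is read from chr17:13554045-13554344 on the minus strand and Chl1 from chr6:103510626-103510925 on the plus strand. Capitals mark CG, the dinucleotide that DNA methylation targets, which reads the same on both strands.
2700054A10Rik: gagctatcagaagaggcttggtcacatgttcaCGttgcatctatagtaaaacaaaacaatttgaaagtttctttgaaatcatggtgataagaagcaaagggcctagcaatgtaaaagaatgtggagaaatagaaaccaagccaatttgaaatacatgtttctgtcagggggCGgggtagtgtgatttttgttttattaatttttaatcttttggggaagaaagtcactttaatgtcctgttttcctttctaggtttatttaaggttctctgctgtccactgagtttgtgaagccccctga
Chl1: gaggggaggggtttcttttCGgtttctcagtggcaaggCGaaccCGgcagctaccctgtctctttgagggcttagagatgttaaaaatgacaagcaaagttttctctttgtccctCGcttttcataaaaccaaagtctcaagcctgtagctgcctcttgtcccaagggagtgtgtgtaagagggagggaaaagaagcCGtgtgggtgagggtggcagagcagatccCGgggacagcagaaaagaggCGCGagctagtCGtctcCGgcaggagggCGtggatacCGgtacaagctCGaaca
The 2700054A10Rik window held 2 CG and the Chl1 window 13. Of all 32851 windows, 23.3% and 63.7% held at most as many, the median was 7, and 94.6% held at least 1. Each of these is a description of the window and not of the region beside it.

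In coverage the 8 genes took 2 forms, 1 gene covered along its whole length and 7 covered at a single spot. Sfi1 (chromosome 11, positions 3131850 to 3203347, GRCm38) held 36 regions that covered 31.6% of its span. Its most covered region took 6.44% of the gene's reads pooled over the libraries (Wilson 95% interval 6.29 to 6.60). By library this share was 6.37% and 6.06% in sgPrdm12 and 6.54% and 6.99% in sgNTC, a wider spread than the interval. In contrast, 1 region held 100% of the reads in Cdk8, Gm33838 and Gm525, 99.9% in Chl1, 99.4% in Gm36876 and 93.1% in Atrnl1, whose span is 522384 bases. For 2700054A10Rik (chromosome 17, 13487021 to 13554094) 1 region held 68.4%, and a neighbour on the same side of the gene took nearly all of the rest. These intervals and shares cover counting error only, since reads without molecular identifiers are not independent molecules. Of the 55 regions 47 had at least 100 reads summed over the 4 libraries, with 165 reads in the lowest of them, and the highest of the other 8 had 95.

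The density of reads differed widely among the single spots, and the thinner ones came near Sfi1. At the main region of Gm33838, on chromosome 9 at 35305219 to 35305591, it was 37.8 and 25.7 reads per base in sgPrdm12 and 34.5 and 44.9 in sgNTC. The region of Chl1, on chromosome 6 at 103649048 to 103649286, had 28.5 and 17.3 against 20.1 and 27.8 reads per base. In 2700054A10Rik, at 13551824 to 13553149, the values were 27.3 and 22.5 in sgPrdm12 and 5.61 and 6.42 in sgNTC. Cdk8 was the thinnest of the single spots in sgPrdm12, with 1.74 and 1.33 reads per base there against 2.43 and 1.74 in sgNTC. Gm36876 had 3.40 and 2.42 against 5.34 and 2.72, and Atrnl1 7.72 and 8.15 against 1.88 and 2.14. Over the 36 Sfi1 regions the medians were 1.75 and 1.10 against 0.715 and 0.838, and the highest values in sgPrdm12 were 2.43 and 1.64, so the Cdk8 spot lay within the Sfi1 range there. Over all 46409 regions the medians were 0.109 and 0.0562 against 0.0241 and 0.0283. Even the thinly covered Sfi1 regions thus stood far above the typical region of the same library. By summed count the main region of 2700054A10Rik ranked 4 of all regions, that of Gm33838 6, Chl1 13, Gm525 20, Atrnl1 32, Gm36876 35, Sfi1 36 and Cdk8 73.

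As a share of the library, 3 of the 8 genes were higher and 5 lower in both sgPrdm12 libraries than in both sgNTC libraries. Gm525, 2700054A10Rik and Atrnl1 were on the higher side, and Chl1, Gm33838, Cdk8, Gm36876 and, by a small margin, Sfi1 on the lower side. How many of all genes separate in this way was not counted, so nothing is read from these 2 numbers. Under total counts the median gene itself stood at a log2 fold change of 0.54. The split into 3 and 5 was also found relative to the typical gene. On the TMM scale, which sets the bulk of regions or genes to no change, counts summed per gene passed edgeR's quasi-likelihood test for all 8 genes, 3 higher and 5 lower. Among all 7775 genes tested, 1.08% were higher and 1.71% lower. As a block, the batch left 2 of the 8 genes higher and 5 lower (background 0.669% and 1.35%). Tested as single regions, 0 of the 54 testable regions of these genes were higher and 8 were lower, where 0.11% and 0.377% of all 37390 regions were. The members were picked with the comparison known, so nothing is read from their counts against these shares. With the batch as a block 1 region was higher and 16 were lower (background 0.12% and 0.457%). Without sgNTC-1 or without sgNTC-2, 0 regions of the 8 genes passed in either direction. The split also moves with the scale. Total counts gave 5 regions higher and 5 lower (background 2.5% and 0.211%), and scaling by the authors' constants gave 14 and 4 (background 20.8% and 0.139%).

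**Figure D1:**
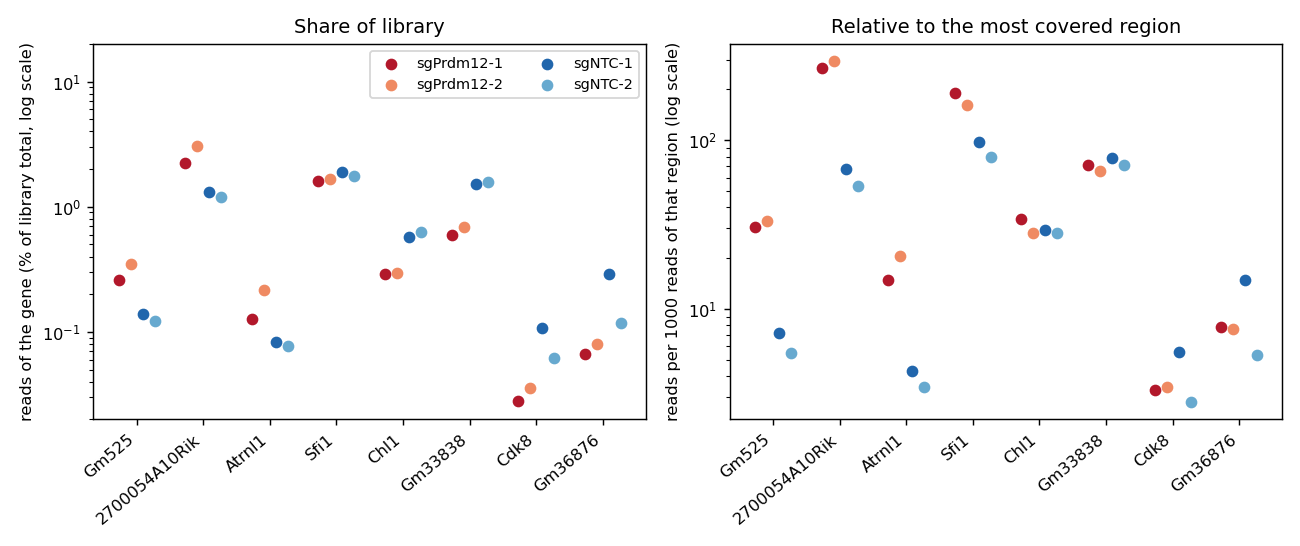
Reads of each gene in the 4 libraries, as percent of the library total (left) and per 1000 reads of the most covered region of the table (right), both on log axes, with 1 point per library. On the left the sgPrdm12 points lie above the sgNTC points for Gm525, 2700054A10Rik and Atrnl1 and below them for the other 5 genes. On the right those of Chl1 lie between 28.2 and 34.3 in all 4 libraries.

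Gm525 (chromosome 11, 89073841 to 89093064) had 1 region, at 89081687 to 89082049. It held 6102 and 4838 reads in the sgPrdm12 libraries, against 1176 and 1284 in the sgNTC libraries. The authors' deposited normalized signal was 3893 and 5412 against 1514 and 1398. Both sgPrdm12 libraries stood above both sgNTC libraries on either measure, but the typical region was raised on both as well. The median region held 32 and 17 reads against 7 and 9, and stood at a log2 fold change of 1.00 with the authors' constants. Counts per 1000000 reads on the TMM scale are called CPM. The Gm525 region averaged 2658 ± 700 CPM in sgPrdm12 and 1676 ± 53.6 CPM in sgNTC (SD, n = 2 each). As a region, at a log2 fold change of 0.66 (SE 0.23), it missed the threshold (edgeR, adjusted p = 0.313). As a gene, with the same counts, it passed (SE 0.13, edgeR, adjusted p = 0.000123). The fits over genes and over regions differ in their estimate of the spread, their TMM factors and their number of tests, and the part of each was not tested. The value was 0.34 in batch 1 and 0.94 in batch 2. Without sgNTC-1 or sgNTC-2 the gene did not pass either (edgeR, adjusted p = 0.223 and 0.373).

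For 2700054A10Rik both heavy regions showed the same split between the groups. The main region held 36123 and 29775 reads in sgPrdm12 and 7429 and 8506 in sgNTC. The second, at 13550672 to 13551632, held 16589 and 12993 against 3554 and 4017. The second region had 0.459 and 0.436 times the reads of the main one in sgPrdm12 and 0.478 and 0.472 times in sgNTC, so the proportion between them hardly differed between libraries. The log2 fold changes were 0.57 (SE 0.20) and 0.48 (SE 0.21), and neither region passed (edgeR, adjusted p = 0.351 and 0.665). With the batch as a block the main region passed at 0.54 (edgeR, adjusted p = 0.0196). Summed, the gene rose by 0.54 (SE 0.10, edgeR adjusted p = 5e-05). The gene value was 0.19 in batch 1 and 0.82 in batch 2. It did not pass without sgNTC-1 or sgNTC-2 (edgeR, adjusted p = 0.592 and 0.582) or with DESeq2's Wald test (adjusted p = 0.116), and was 0.23 without sgPrdm12-2. The gene's 3 other regions held 22 to 124 reads in sgPrdm12 libraries and 5 to 42 in sgNTC libraries, with log2 fold changes of 0.41, 0.03 and -0.00. The heavy end of the gene thus supplied its value.

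Atrnl1 (chromosome 19, 57610960 to 58133343) was heavy in 1 of 7 regions, at 58113271 to 58113622. This region held 2710 and 2859 reads in sgPrdm12 and 659 and 750 in sgNTC. Between the sgPrdm12 libraries the share of the library differed widely, 0.115% against 0.205%, while the sgNTC libraries had 0.0781% and 0.0707%. At a log2 fold change of 0.56 (SE 0.25) the region missed the threshold (edgeR, adjusted p = 0.662). Batch 1 gave -0.00 and batch 2 gave 0.96, and leaving out sgPrdm12-2 gave -0.076. The sum over the gene passed at 0.55 (edgeR, adjusted p = 0.0107), and its batch values were 0.01 and 0.95. It did not pass with the batch as a block (edgeR, adjusted p = 0.0844), nor without sgNTC-1, sgNTC-2 or sgPrdm12-2 (edgeR, adjusted p = 0.48, 0.486 and 0.984). It also missed the threshold with limma-voom (0.41, adjusted p = 0.363) and with DESeq2's Wald test (0.55, adjusted p = 0.882). The other 6 regions, spread over the gene, held 11 to 74 reads in sgPrdm12 libraries and 4 to 16 in sgNTC libraries. Their log2 fold changes ran from -0.67 to 1.16, and 0 passed.

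Gm33838 (chromosome 9, 35285514 to 35307723) held 14079 and 9572 reads in sgPrdm12, against 12822 and 16702 in sgNTC, all in 1 region. These made up 0.598% and 0.686% of the sgPrdm12 libraries and 1.52% and 1.57% of the sgNTC libraries, with no overlap. The region averaged 5614 ± 882 CPM in sgPrdm12 and 19997 ± 1854 CPM in sgNTC (SD, n = 2 each). It fell by 1.83 on the log2 scale (SE 0.21, edgeR adjusted p = 6.1e-10). The fall was close to the same in both batches, -1.90 and -1.77.

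Chl1 (chromosome 6, 103510584 to 103733038) had its reads in a 238-base region, with 6777 and 4119 in sgPrdm12 and 4788 and 6606 in sgNTC. In share of the library this was 0.288% and 0.295% against 0.568% and 0.623%. The region averaged 2543 ± 199 CPM in sgPrdm12 and 7703 ± 1025 CPM in sgNTC (SD, n = 2 each), so the distance between the groups was larger than the spread within them. It fell by 1.60 (SE 0.22, edgeR adjusted p = 2.17e-07), and the batches gave -1.54 and -1.65. The 198-base region near the start was too thin to be tested.

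Cdk8 and Gm36876 also stood lower in sgPrdm12, but with sgNTC libraries far apart from each other. The Cdk8 region (chromosome 5, 146260979 to 146261355, gene 146230795 to 146302874) held 654 and 501 reads in sgPrdm12, against 914 and 655 in sgNTC. The Gm36876 region (chromosome 11, 109011645 to 109012100, gene 108980739 to 109034783) held 1549 and 1101 against 2430 and 1236. In both the sgNTC-1 library was the highest of the 4. On the TMM scale Cdk8 averaged 279 ± 66.9 CPM in sgPrdm12 and 1084 ± 351 CPM in sgNTC, and Gm36876 633 ± 119 CPM and 2559 ± 1389 CPM (SD, n = 2 each). The regions fell by 1.96 (SE 0.27) and fell by 2.02 (SE 0.26), with edgeR adjusted p = 1.53e-07 and 3.89e-08. For Cdk8 the value was -2.52 in batch 1 and -1.36 in batch 2, and for Gm36876 it was -2.69 and -1.14. Without sgNTC-1 they were -1.62 and -1.36. The second Gm36876 region, with 9 and 13 reads in sgPrdm12 and 2 and 13 in sgNTC, did not pass.

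As single regions, Gm33838, Chl1, Cdk8 and Gm36876 did not pass without sgNTC-1 (edgeR, adjusted p from 0.537 to 0.838) or without sgNTC-2 (edgeR, adjusted p from 0.128 to 0.798). The gene sums of these 4 hold the same counts or nearly so, and are not separate evidence. As gene sums their log2 fold changes ran from -1.93 to -1.32 without sgNTC-1 and from -2.51 to -1.49 without sgNTC-2.

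Sfi1 was lower over its whole length, and more so towards its high-coordinate end. Summed over 36 regions it held 37930 and 23463 reads in sgPrdm12 and 15891 and 18716 in sgNTC. That was 1.61% and 1.68% of the sgPrdm12 libraries and 1.88% and 1.76% of the sgNTC libraries, so the groups stood close together without overlap. The log2 fold change of the gene was -0.71 (SE 0.10, edgeR adjusted p = 4.08e-09), and the batches gave -0.81 and -0.62. Leaving out sgNTC-1 or sgNTC-2 ended the call (edgeR, adjusted p = 0.188 and 0.177), while the value was -0.74 and -0.72. Such fits hold 1 sgNTC library, which is assumed to vary like the sgPrdm12 pair, the only source of the spread. With total counts the value was -0.15 and missed the threshold (edgeR, adjusted p = 0.153), and with the authors' constants the direction turned, to 0.31 (edgeR, adjusted p = 0.000506). Set against the median gene, it was -0.67 under TMM and under the authors' constants, and -0.68 under total counts.

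All 36 Sfi1 regions had a log2 fold change below 0 on the TMM scale, from -1.31 to -0.14. Taken in order along the chromosome, the first 12 regions had a median of -0.45, the next 12 of -0.74 and the last 12 of -0.91. The reads of the first 12 summed to 11758 and 7520 in sgPrdm12 and 4159 and 4962 in sgNTC. Those of the last 12 summed to 15279 and 9364 against 7056 and 8459. The step was present in both batches, from -0.58 to -0.93 in batch 1 and from -0.42 to -0.87 in batch 2. Across the 36 regions Spearman's rho between position and log2 fold change was -0.69, and 0.20 between position and mean count. The regions share libraries and neighbour each other, so this is a description. With the batch as a block the most covered Sfi1 region, at 3195621 to 3196929, passed as well (-0.84, edgeR adjusted p = 0.107 without and 0.00965 with the block). The 4 called regions all lay among the last 12, and with the batch as a block 12 Sfi1 regions passed, 0, 4 and 8 in the 3 groups. At 3198936 to 3199929, the last region, sgPrdm12 libraries held 1104 and 596 reads and sgNTC libraries 650 and 775. It fell by 1.31 (SE 0.25, edgeR adjusted p = 0.000765). At 3134341 to 3135831, among the first 12, they held 2193 and 1390 against 628 and 735, and the value was -0.14 (SE 0.24, edgeR adjusted p = 0.997). The pseudogene Pisd-ps1 overlaps the first region, Gm33862 and the pseudogene Gm11400 overlap 3 in the lower part and the pseudogene Fau-ps2 overlaps 1 in the upper part. Reads from a pseudogene and its parent can be split, so the values there are uncertain.

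**Figure D2:**
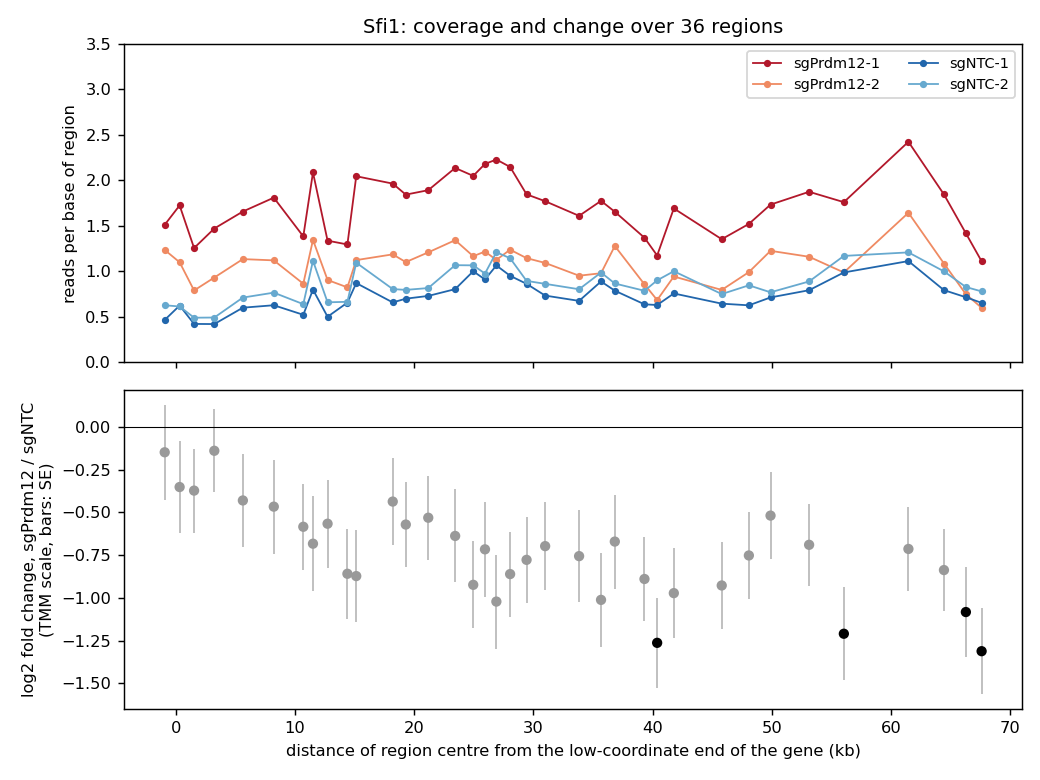
Sfi1 regions by the distance of their centre from the low-coordinate end of the gene. The upper plot gives reads per base of region in each library, and the lower plot the log2 fold change of sgPrdm12 over sgNTC with its SE, in black where the edgeR adjusted p is under 0.05. The fold changes run from about -0.14 near the low end to -1.31 at the high end, and the 4 black points lie beyond 40 kb.

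Ratios between regions within a library do not depend on any scaling of libraries. The most covered region of the table, on chromosome 2 at 98666550 to 98667323, held 8.43% and 10.4% of the sgPrdm12 reads and 19.4% and 22.1% of the sgNTC reads. Per 1000 reads of this region Chl1 held 34.3 and 28.3 in sgPrdm12 and 29.3 and 28.2 in sgNTC, and Gm33838 70.9 and 65.7 against 78.3 and 71.3. For Chl1 and Gm33838 the ratio of the main region to that region varied no more than 1.21 and 1.19 times over the 4 libraries. The groups overlapped for Chl1, and for Gm33838 both sgPrdm12 values lay just below both sgNTC values. Cdk8, with 3.30 and 3.44 against 5.58 and 2.80, was near this pattern in all but sgNTC-1. Gm36876, with 7.85 and 7.65 against 14.9 and 5.33, varied more, with sgNTC-1 highest and sgNTC-2 lowest. The groups overlapped for Cdk8 and for Gm36876. Gm525 held 30.7 and 33.2 per 1000 in sgPrdm12 and 7.18 and 5.48 in sgNTC, and 2700054A10Rik 267 and 295 against 67.6 and 53.8. Their groups were far apart, but the reference region itself stood at a log2 fold change of -1.70 on the TMM scale. A region at 0 on that scale is therefore also higher in sgPrdm12 on this measure. The median region held 32 and 17 reads against 7 and 9, and the reference region 198462 and 145691 against 163719 and 234214. Atrnl1, with 14.9 and 20.7 against 4.29 and 3.47, and Sfi1, with 191 and 161 against 97.1 and 79.9, were higher in sgPrdm12 on this measure as well. The direction of Sfi1 thus depends on what it is set against. The 2 genes with the most alike profiles by this measure were 2700054A10Rik and Gm525, where the main region of the first held 5.92 and 6.15 times the reads of the second in sgPrdm12 and 6.32 and 6.62 times in sgNTC. They lie on different chromosomes.

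The choice of scale moved all 8 genes together. The median gene stood at -0.04 under TMM, 0.54 under total counts and 0.98 under the authors' constants. With the authors' constants Gm525, 2700054A10Rik and Atrnl1 were at 1.68, 1.55 and 1.56, and Chl1, Gm33838 and Cdk8 at -0.58, -0.82 and -0.95. All of the genes except Sfi1 kept their direction and passed as gene sums under TMM, total counts and the authors' constants. With total counts 15.1% of all genes were higher and 0.9% lower, and with the constants 44.3% and 0.412%. Only 1 factor per library differs between these scales, so their results are not separate evidence.

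**Figure D3:**
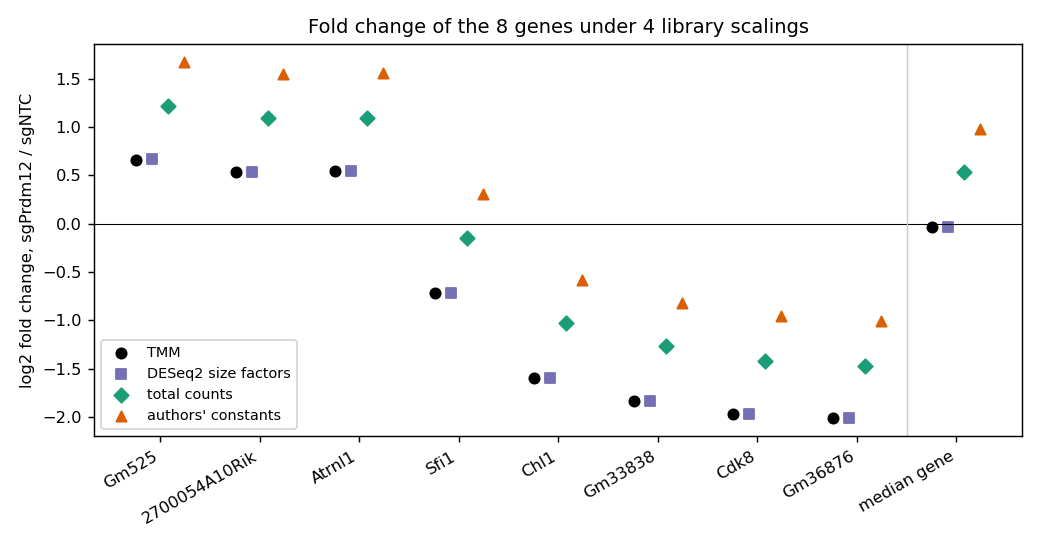
Log2 fold change of sgPrdm12 over sgNTC for the 8 genes and for the median gene, with 4 ways to scale the libraries, 1 marker per scale. Gm525, 2700054A10Rik and Atrnl1 are above 0 and Chl1, Gm33838, Cdk8 and Gm36876 below 0 under all 4, while Sfi1 lies at -0.71 with TMM and 0.31 with the authors' constants.

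Heavily covered regions outside the 8 genes, pooled over all levels of coverage, spread over the same range of values. With a mean of at least 100 reads per library there were 252 such regions, of which 2 were higher and 58 lower (edgeR). That was 0.794% and 23.0% of them, against 0.11% and 0.377% of all tested regions. The median log2 fold change of the 252 was -0.23, with quartiles at -0.97 and 0.27, against -0.01 over all regions. With the same limit on the mean, the 44 regions of the 8 genes had a median of -0.71, and 36 of them belong to Sfi1. The other 8 had a median of -0.56, with quartiles at -1.86 and 0.56. Among the 252 regions, 8 had a smaller value than Gm36876, 9 than Cdk8, 14 than Gm33838 and 21 than Chl1, and 219, 220 and 229 had a smaller one than Atrnl1, 2700054A10Rik and Gm525. All 7 thus lay within the range of the 252 regions taken at any coverage. At its own coverage 2700054A10Rik stood apart. Its main and second regions had mean counts of 20458 and 9288. Outside regions with mean counts of 16119.5, 12891, 11322, 11022.5 and 9652 stood at -1.52, -2.20, -1.55, -1.93 and -2.13. At a mean of at least 1000 reads, a limit set after the values were seen, 40 outside regions remained, of which 24 stood below -1, 9 between -1 and 0 and 7 above 0. The 3 most covered of them had -1.70 on chromosome 2, and -1.63 and -1.65 on chromosome 9 at 3023412 to 3024666 and 3000125 to 3001528. Of the 24, 13 lay at the start of the assembled sequence of chromosome 9. No test of a difference between these sets was made.

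**Figure D4:**
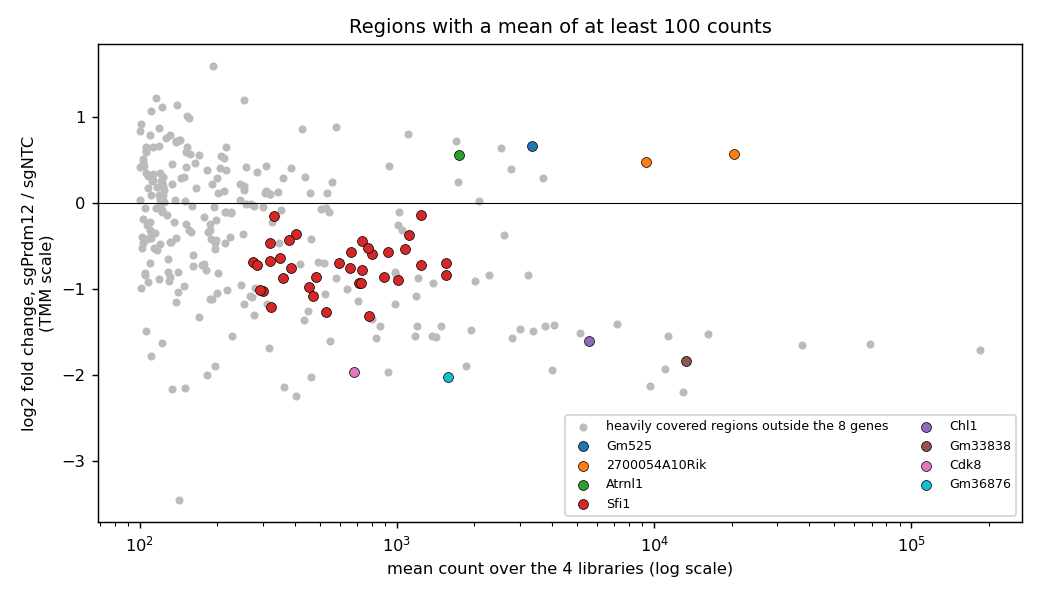
Log2 fold change of sgPrdm12 over sgNTC on the TMM scale against the mean count over the 4 libraries (log axis), for regions with a mean of at least 100. Grey points are the 252 regions outside the 8 genes and coloured points the 44 regions of the 8 genes. Chl1 at -1.60 and Gm33838 at -1.83 lie among grey points of like coverage, and 2700054A10Rik at 0.57 and 0.48 lies above 0 at high coverage.

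Genes with related roles did not pass the test in either direction. Only a few were tested, and among all genes tested 1.08% were higher and 1.71% lower. A count of 0 among so few is therefore no contrast with the 8 genes. Of the 6 other genes of the Mediator kinase module, to which Cdk8 belongs, 1 had a region, Med12l, with 28 and 9 reads in sgPrdm12 and 16 and 7 in sgNTC and a log2 fold change of -0.98 (SE 0.72, edgeR adjusted p = 0.701). Of 9 other L1 family and contactin genes 6 had regions and 0 changed. The most covered were Cntn5, with 946 and 573 reads in sgPrdm12 and 262 and 294 in sgNTC, and Cntn4, with 813 and 414 against 207 and 202. These sums come from 31 and 24 regions, while Cdk8 held 654 and 501 reads against 914 and 655 in 1 region. Cntn5 stood at -0.10 and Cntn4 at -0.00, and Nrcam at -0.95 and Cntn1 at -0.14. Cntn3 and Cntn6, the nearest protein-coding genes on either side of Chl1, held 346 and 147 reads against 63 and 101, and 285 and 147 against 77 and 74. They stood at -0.02 and -0.07. Of 5 centrin-related genes besides Sfi1 only Poc5 had a region, at 0.25. Of the 16 nearest protein-coding neighbours of the 8 genes 10 had a region, 0 changed (edgeR, 0 with an unadjusted p under 0.05) and their median was -0.11. The smallest p among the neighbours belonged to Wasf3, beside Cdk8, at 0.25, Nog, beside Gm525, at -0.79, and Rgs9, beside Gm36876, at -0.30 (edgeR, adjusted p = 0.8, 0.816 and 0.826). A p that misses the threshold does not show that these genes were alike in the groups.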

How the data were processed

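Read counts per region in 2 sgPrdm12 and 2 sgNTC libraries were analysed. The authors deposited raw counts and a normalized signal, which equals the count times 1 constant per library (0.638 and 1.12 for sgPrdm12, 1.29 and 1.09 for sgNTC), and the sources used here do not give how the constants were derived. Per the submitters' processing notes Trimmomatic, Bowtie2, MACS2 and DiffBind were used, without versions, and the build was GRCm39. Coordinates were read as GRCm38, since 2 regions overlap Rn18s-rs5 at its place in the GRCm38 RefSeq table. Whether starts count from 0 or 1 is unknown. How multi-mapping reads, duplicates and blacklisted stretches were treated is not given either, and each can change counts in heavily covered regions.

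Regions within 5 kb of a protein-coding or lncRNA span were summed per gene. Regions and genes were tested across the whole table with edgeR 4.0.16 (R 4.3.3): quasi-likelihood test, TMM, filterByExpr, no block, two-sided, Benjamini-Hochberg adjusted p under 0.05. The SE is the log2 fold change over the square root of F. CPM are per 1000000 reads of TMM-scaled library. Within-batch ratios added 0.5 to each count. The test code was checked on simulated counts. Replicate numbers mark the batch in the labels and so pair the libraries. The differences between replicates of the 2 groups had a correlation of 0.0035 over regions, and 0.279 over the 296 with a mean of at least 100. Alternatives were other scales, no filter, a replicate block, leave-one-out fits, limma-voom (limma 3.58.1) and DESeq2 1.42.0. The named items are the 8 genes, their main regions, those with a sum of 100 or more reads (for Sfi1 by range, with examples), up to 3 genes of smallest p per list (Cntn3, Cntn4 and Cntn6 added after their values were seen), and the 3 most covered regions outside the genes. Genes and lists were chosen with earlier results of these data known. The list for 1 other gene family is not reported here.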

Additional observations from a re-analysis of the deposited data

How the results depend on the processing

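Named values kept their direction under every alternative run except these. With the authors' constants Sfi1 turned to 0.31 as a gene and 0.18 in its most covered region, and with the authors' constants and a replicate block (chosen after seeing the data) to 0.30 and 0.18. The main Atrnl1 region turned to -0.076 without sgPrdm12-2. It was 0.90 without sgPrdm12-1 and at most 1.56, with the authors' constants. The counts of regions higher and lower, 41 and 141, were 936 and 79 under total counts, 7765 and 52 under the constants, and 6769 and 53 with these and the block. They were 11 and 72 with TMM computed without the 10 most covered features, while the higher count was 11 with DESeq2 size factors or the Wald test and 1 with limma-voom. Genes higher and lower, 84 and 133, were 1176 and 70, 3446 and 32, and 3359 and 30 under total counts, the constants, and the constants with the block, and 10 and 55 with the Wald test. Genes higher were 19 with limma-voom, 52 with the replicate block and 127 at an adjusted p of 0.1. Regions of the 8 genes, 0 higher and 8 lower, were 5 and 5 with total counts, 14 and 4 with the constants with or without the block, and 1 and 16 with the replicate block. Lower ones numbered 5 with TMM without the top features, 25 with the Wald test, 16 with limma-voom and 14 at 0.1. Of the 8 genes 3 were higher and 5 lower. The Wald test called 1 higher and limma-voom 2, and sums without the most covered region, tested in 3 genes, called 1 higher and 1 lower. With 1 library left out, regions higher ran from 6 to 55 and lower from 29 to 223, genes higher from 25 to 87 and lower from 80 to 154, regions of the 8 genes from 0 to 4 and from 0 to 25, and the genes from 0 to 3 and from 4 to 5. The causes were not tested. The median region holds 7 and 9 reads in sgNTC, which limits the thin regions. The main regions hold more reads, but their values also depend on the scale, which the bulk of regions sets under TMM.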
